A study of Mus musculus with 12 samples.

Results

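The 45 genes described here encode proteins of the large (60S) subunit of the cytosolic ribosome. They were taken by gene name from a table of 53351 genes, and all 45 names were found once each. Rows of pseudogenes, of paralogs and of ubiquitin fusions were left out of the set. The table holds 12 RNA sequencing libraries of mouse cortical progenitor cells, which were wild type, came from embryos at E13.5 and spent 1 night in culture with bFGF and EGF. Some cultures had mTOR inhibited for 2 h with 250 nM Torin1, a compound that blocks the kinase site of both mTOR complexes, and the others received DMSO as the solvent control. All cultures of both treatments then had cycloheximide at 100 ug/ml for 5 min, which arrests ribosomes on the mRNA. Of each lysate 10% was kept as total mRNA, and the remainder was spun through sucrose to collect mRNA carrying more than 3 ribosomes, here called polysome mRNA. The 4 groups are polysome mRNA from Torin1 cells, polysome mRNA from DMSO cells, total mRNA from Torin1 cells and total mRNA from DMSO cells, with 3 replicates each. The labels call them biological replicates but do not say whether they came from separate litters, so p-values measure the spread between these cultures. In such bulk samples fewer cells of a type and less RNA per cell cannot be told apart.

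Most of these proteins are present as a single copy in every cytosolic ribosome, and growing cells spend a large part of their mRNA on them. Vertebrate ribosomal protein mRNAs begin with a 5' terminal oligopyrimidine (TOP) tract, a cytosine at the cap followed by an unbroken run of C and T. When mTORC1 is inhibited, LARP1 binds the cap and the TOP tract and 4E-BP proteins block the cap-binding factor eIF4E, and translation of such mRNAs is known to be reduced more than that of other mRNAs. This regulation acts on ribosome loading and need not alter the amount of the mRNA.

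Pyrimidine tracts lay close to the annotated starts of most of these genes. Start regions of 34 of the 45 genes, in 40 entries, were available from RefSeq for GRCm38.p6, the assembly of mm10. A run of a C and at least 6 further bases that are C or T, read on the strand of the gene between 50 bases before and 50 bases after the annotated start, was present in 35 of the 40 entries (87.5%) and in 40.7% of all 32851 entries. On the opposite strand the shares were 42.5% and 44.5%. The 8-base word CTCTTTCC, chosen after the sequences were seen, was in 22.5% of the members' entries and in 0.45% of all entries on the strand of the gene, and in 0% and 0.45% on the opposite strand. Several entries of 1 gene overlap, and the annotated start can lie on either side of the tract, so these are matches of letters and not mapped cap sites. The following 30-base stretches lie around the longest such run, in capitals and followed to its ends where it passed the 50-base limit. They are shown as examples and are not known to be the TOP tracts of these mRNAs. The first 5 are those of the available genes with the larger falls in polysome mRNA.

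Rpl31 (chr1:39367825-39367854, plus strand): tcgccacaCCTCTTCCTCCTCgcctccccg

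Rpl12 (chr2:32961732-32961761, plus strand): ggaggaggcaacggtgcaaCTTTCTTCggt

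Rpl36a (chrX:134585673-134585702, plus strand): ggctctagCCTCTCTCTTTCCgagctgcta

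Rpl39 (chrX:37085173-37085202, minus strand): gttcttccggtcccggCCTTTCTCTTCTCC

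Rpl26 (chr11:68901507-68901536, plus strand): ctcccaaCCTCCTCTCCCCTTTCgctccga

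The next 5 belong to the available genes with the smaller differences in polysome mRNA, and they hold runs of similar length.

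Rpl27 (chr11:101442194-101442223, plus strand): tcatcctcgCTCCTCCCTCCacacgccgga

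Rpl4 (chr9:64173406-64173435, plus strand): agcgtggCCTTCTCCTCTCCCCgtcatggt

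Rpl19 (chr11:98026944-98026973, plus strand): gcggcccacaagCTCTTTCCTTTCgctgct

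Rpl41 (chr10:128549119-128549148, minus strand): cgccattaaatagcagtaggCCTCCCTCTC

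Rpl7a (chr2:26910790-26910819, plus strand): caattCCCTCTTCTTTCTTTCTCCagcagc

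The runs in capitals were 8 to 16 bases long in the first 5 genes and 10 to 19 bases long in the other 5. They began at places from -52 (Rpl26) to 40 (Rpl41) bases relative to the annotated start. The runs of Rpl7a and Rpl19 come from entries that start inside the gene spans given below. The runs are thus alike in letters and length only. The run of Rpl26 went on past the limit, with 13 of its 16 bases inside. Those of Rpl39 and Rpl41 reach the last base of their entries, so both may be longer. Over the 34 genes, the 31 with such a run had a median log2 fold in polysome mRNA of -1.12, and the 3 without one had a median of -1.02.

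The deposited values are relative abundances within a library. They are given below as ppm after scaling by the column total and a trimmed mean of log ratios, so they are not exact parts of a library. The percent shares of the 45 genes use the column total alone. No source used here states a correction for mRNA length, so levels are not compared between genes. Column totals of the deposited table ran from 14341674 to 19201406. Read depth is unknown, so no counting interval is given, and relative values would not show a change in the amount of polysome mRNA altogether. Markers of the labelled cell type were present in every library, for example Sox2 at 89.3 to 129 ppm and Pax6 at 43.2 to 63.3 ppm. The 8 progenitor genes summed to 4480 to 6910 ppm in Torin1 polysomes, against 4920 to 6060 ppm in DMSO polysomes. Neuron genes were also high. The 4 listed summed to 2200 to 2350 ppm in Torin1 polysomes, against 2160 to 2250 ppm in DMSO polysomes. The erythroid list of Hba-a1, Hbb-bt and Alas2 summed to 740 to 900 ppm in Torin1 polysomes, against 643 to 766 ppm in DMSO polysomes. All 4 microglial genes together stayed at or below 5.72 ppm in any library. The 3 endothelial genes summed to 18.6 to 22.2 ppm in Torin1 polysomes, against 13 to 16.8 ppm in DMSO polysomes, and the 3 genes of meninges and fibroblasts to 22.8 to 29.7 ppm, against 13.6 to 17.6 ppm. The 3 intermediate progenitor genes summed to 149 to 180 ppm in Torin1 polysomes, against 107 to 110 ppm in DMSO polysomes. Between Torin1 and DMSO polysomes the endothelial, meningeal and intermediate progenitor sums did not overlap, and the sums of the other lists did. Fabp7 had a mean of 3770 ppm in Torin1 and 4280 ppm in DMSO polysomes, and the other progenitor genes had higher means with Torin1. In total mRNA every sum except the microglial was higher with Torin1, without overlap. Progenitor genes there had 3900 to 4000 ppm with Torin1, against 3430 to 3520 ppm with DMSO. Neuron genes had 2040 to 2140 against 1940 to 2000 ppm, and erythroid genes 773 to 898 against 712 to 763 ppm. The part of these levels in the results was not tested. In total mRNA, Torin1 replicate 2 had 2090.1 ppm of the noncoding RNA Rn7sk, against 38.6 to 183 ppm in the other total libraries.

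Together the 45 mRNAs held a smaller share of polysome mRNA in Torin1 cells than in DMSO cells. They held 5.82%, 5.42% and 6.42% of the signal of the 3 Torin1 polysome libraries, against 10.4%, 9.23% and 10.6% in DMSO polysomes. In total mRNA they held 7.22%, 6.58% and 7.17% with Torin1, against 6.69%, 6.78% and 6.71% with DMSO. The polysome groups do not overlap and the total groups do. The means were 5.89 ± 0.5% and 10.1 ± 0.747% for Torin1 and DMSO polysomes, and 6.99 ± 0.36% and 6.73 ± 0.0478% for Torin1 and DMSO total mRNA (SD, n = 3 each).

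**Figure D1:**
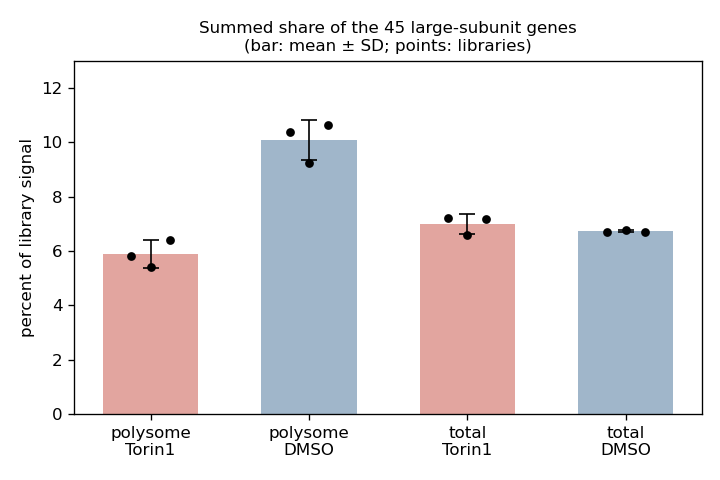
Summed share of the 45 large-subunit genes in each library, as percent of the library signal, for the 4 groups. Bars are group means with SD and points are libraries; the Torin1 polysome libraries reach at most 6.42% and the DMSO polysome libraries lie at 9.23% or above.

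The polysome comparison asks which mRNAs take a smaller or larger part of polysome mRNA when mTOR is inhibited. It moves with the amount of an mRNA as well as with its ribosome loading. Of the 45 members, 44 were lower in Torin1 polysomes and 0 were higher (limma over 20240 genes, Benjamini-Hochberg adjusted p under 0.05), where 5.77% of all genes tested were called lower and 4.55% higher. The log2 folds ran from -1.57 (Rpl32) to -0.54 (Rpl7a), with a median of -1.12 beside 0 over all genes tested and quartiles at -1.26 and -0.80. The mean polysome level of Rpl32 in Torin1 cells was 0.336 of that in DMSO cells on the fitted scale, and that of Rpl7a was 0.686. In 44 members all 3 Torin1 libraries lay below all 3 DMSO libraries, a pattern seen in 12.7% of all genes tested, and the exception was Rpl41.

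The number of calls depends on how the spread is estimated. Within groups the members' log2 values had a median SD of 0.245 in Torin1 polysomes and 0.22 in DMSO polysomes, against 0.0397 and 0.0324 in Torin1 and DMSO total mRNA, and the fit shares 1 spread over all 4 groups. When limma was given the 6 polysome libraries alone, 17 members passed, with 1.3% of all genes called lower, and the other 28 had adjusted p-values up to 0.319 (Rpl41). Part of the spread was common to the members, since DMSO replicate 2 was the lowest DMSO polysome library for 44 of the 45 genes and Torin1 replicate 3 was the highest Torin1 polysome library for 40 of them. With both of these libraries left out, an alternative chosen after seeing the data, 45 members were called lower and the median log2 fold was -1.35. With replicate 1 left out of all groups 30 were called, and the median was -0.86 when libraries were scaled by their column totals only. The shares of all genes called with these libraries left out are not given here.

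**Figure D2:**
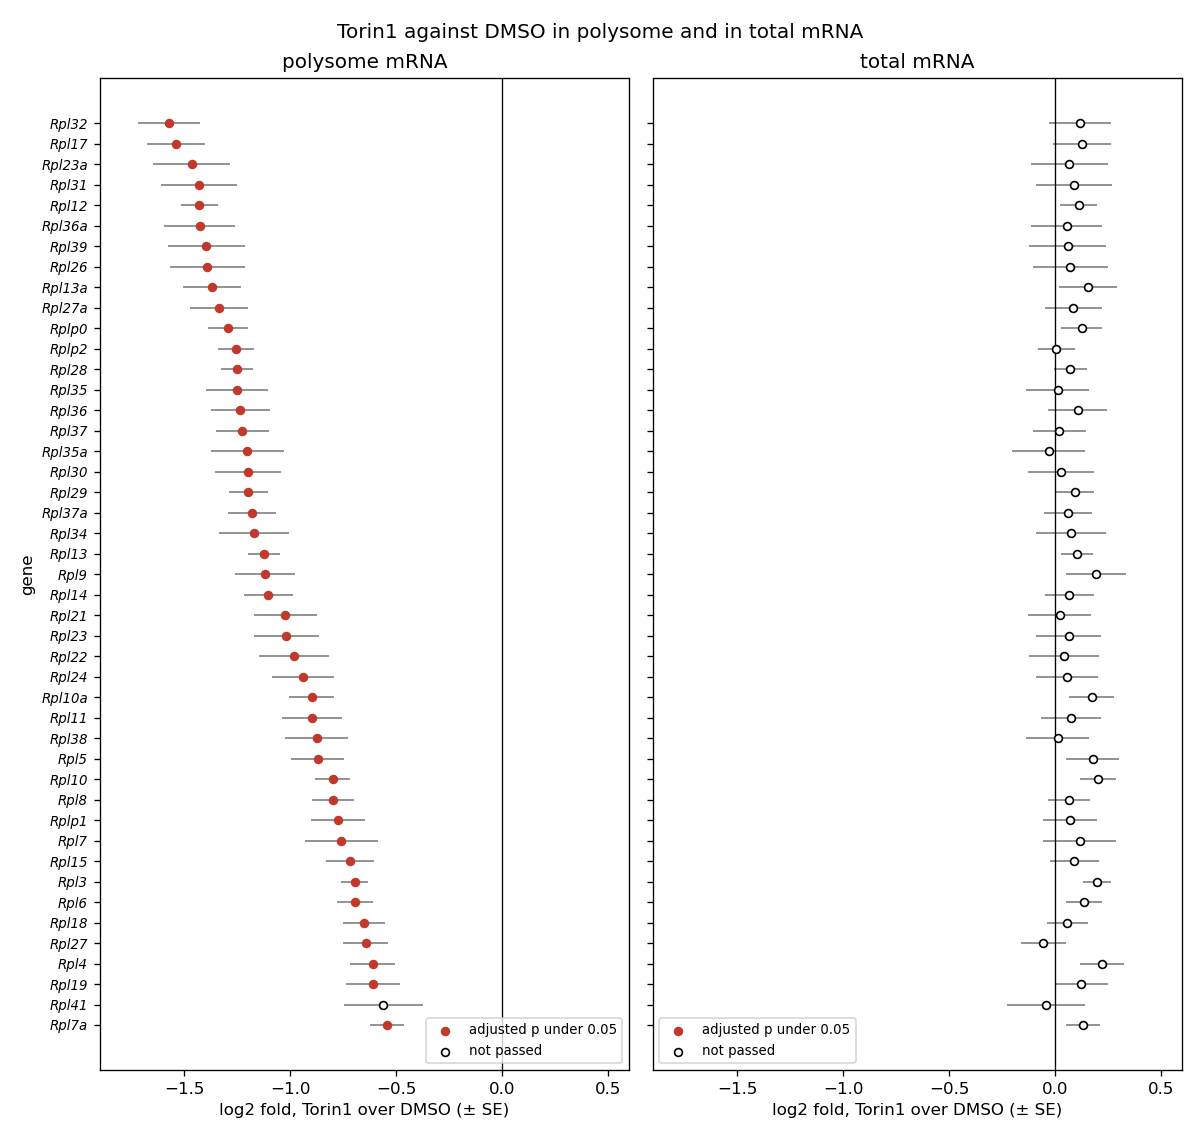
Log2 fold of Torin1 over DMSO for each of the 45 genes in polysome mRNA (left) and total mRNA (right), ordered by the polysome fold, with the standard error of the fit over all 12 libraries. Filled points have an adjusted p under 0.05; 44 of 45 points are filled on the left and 0 on the right.

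The stalk of the large subunit recruits the translation factors that hydrolyse GTP. It is built from Rplp0, which anchors it, and the acidic proteins Rplp1 and Rplp2, and Rpl12 sits at its base. All 4 genes fell in polysome mRNA, but not equally. Rplp0 (ENSMUSG00000067274, chromosome 5 from 115559467 to 115563729, GRCm38) had 672, 549 and 535 ppm in Torin1 polysomes, against 1419, 1333 and 1541 ppm in DMSO polysomes. Its log2 fold was -1.29 ± 0.09 (limma, adjusted p = 1.56e-05; 0.0207 with the polysome libraries alone). Rplp2 on chromosome 7 from 141447651 to 141451359 was close to it, with 594, 544 and 618 ppm in Torin1 polysomes, against 1389.8, 1268 and 1545 ppm in DMSO polysomes and a log2 fold of -1.26 ± 0.09. The highest Torin1 library was at 50.4% of the lowest DMSO library for Rplp0 and at 48.7% for Rplp2, so the groups are well apart. Rplp1 on chromosome 9 from 61913283 to 61914510 had 2871, 2292 and 2841 ppm in Torin1 polysomes, against 4229, 4082 and 5425 ppm in DMSO polysomes. Its log2 fold of -0.77 ± 0.13 was the smallest of the stalk (limma, adjusted p = 0.00244, and 0.0974 with the polysome libraries alone, where it did not pass). Rpl12 on chromosome 2 from 32961712 to 32964045 had 234, 218 and 270.4 ppm in Torin1 polysomes, against 656, 587 and 698 ppm in DMSO polysomes. With a log2 fold of -1.43 ± 0.09 it fell most of the stalk genes (limma, adjusted p = 9.8e-06; 0.0206 with the polysome libraries alone).

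Rpl5 and Rpl11 carry the 5S rRNA into the subunit and, when free, bind Mdm2 and so stabilise p53. Both fell in polysome mRNA by similar amounts in the fit over all 12 libraries, and neither passed with the polysome libraries alone. Rpl5 on chromosome 5 from 107900508 to 107909005 had 729, 721 and 1017 ppm in Torin1 polysomes, against 1589, 1304 and 1572 ppm in DMSO polysomes, a log2 fold of -0.87 ± 0.12. Rpl11 on chromosome 4 from 136049354 to 136053393 had 1669.5, 1466 and 2134 ppm in Torin1 polysomes, against 3527, 2643 and 3636 ppm in DMSO polysomes, a log2 fold of -0.90 ± 0.14. In both genes Torin1 replicate 3 was the highest Torin1 library and still lay below DMSO replicate 2, the lowest DMSO library. Their adjusted p-values in limma were 0.00107 and 0.00198, and 0.069 and 0.0913 with the polysome libraries alone.

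Of the 9 proteins that line the peptide exit tunnel or surround its exit, all 9 genes fell in the fit over all 12 libraries and 2, Rpl17 and Rpl35, passed with the polysome libraries alone. They spanned most of the range, with log2 folds from -1.54 to -0.61. Rpl17, which reaches into the tunnel wall (chromosome 18 from 74998978 to 75003381), had 562, 533 and 782 ppm in Torin1 polysomes, against 1971, 1522 and 1928 ppm in DMSO polysomes. Its log2 fold was -1.54 ± 0.14 (limma, adjusted p = 4.71e-05; 0.0315 with the polysome libraries alone). Rpl23a, a docking site for factors that meet the nascent chain (chromosome 11 from 78180935 to 78183584), had 1528, 1481 and 2448 ppm in Torin1 polysomes, against 5427, 3918 and 5495 ppm in DMSO polysomes, a log2 fold of -1.47 ± 0.18. Rpl31, also at the exit (chromosome 1 from 39367851 to 39371911), had 1252, 1037 and 1700.0 ppm in Torin1 polysomes, against 3960.5, 2694 and 4045 ppm in DMSO polysomes, a log2 fold of -1.43 ± 0.18. With the polysome libraries alone neither passed (limma, adjusted p = 0.0585 for Rpl23a and 0.0582 for Rpl31). The highest Torin1 library was at 51.4%, 62.5% and 63.1% of the lowest DMSO library in Rpl17, Rpl23a and Rpl31, so no groups overlap. Rpl39 and Rpl26 had log2 folds of -1.40 and -1.39, Rpl35 had -1.25 and Rpl22 had -0.98, with adjusted p-values of 0.0606, 0.0597, 0.0486 and 0.0953 in limma with the polysome libraries alone. Rpl4, the other main tunnel protein (chromosome 9 from 64173387 to 64178562), had 712, 735 and 979.8 ppm in Torin1 polysomes, against 1258, 1173 and 1239.6 ppm in DMSO polysomes. Rpl19, a rim protein that also contacts the small subunit (chromosome 11 from 98022003 to 98030493), had 1997, 1752 and 2485 ppm in Torin1 polysomes, against 3336, 2698 and 3429.7 ppm in DMSO polysomes. Their groups do not overlap, yet the gaps are narrow, with log2 folds of -0.61 ± 0.11 for Rpl4 and -0.61 ± 0.13 for Rpl19. With the polysome libraries alone the adjusted p was 0.0953 for Rpl4 and 0.162 for Rpl19, and neither passed.

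The 3 genes for proteins near the peptidyl transferase centre fell by similar amounts, and Rpl3 and Rpl10 also passed with the polysome libraries alone. Rpl3, Rpl8 and Rpl10 had log2 folds of -0.70 ± 0.07, -0.80 ± 0.10 and -0.80 ± 0.08. Rpl3 had 643, 592 and 669 ppm in Torin1 polysomes, against 1016, 1004 and 1063 ppm in DMSO polysomes, and its adjusted p was 6.49e-05 in limma and 0.0275 with the polysome libraries alone. Rows named as Rpl3 pseudogenes hold 32.3% to 34.4% of the sum of Rpl3 and these rows, so its level is uncertain. Rpl10a, the protein of the L1 stalk at the tRNA exit, had a log2 fold of -0.90 ± 0.11 (limma, adjusted p = 0.000291; 0.0502 with the polysome libraries alone).

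At the interface with the small subunit, 3 of 4 genes fell in the fit over all 12 libraries, and 0 of 4 passed with the polysome libraries alone (limma, adjusted p from 0.0603 to 0.319; 3 at an unadjusted p under 0.05). Rpl30, Rpl23 (a contact of the antiassociation factor eIF6) and Rpl24 had log2 folds of -1.20, -1.02 and -0.94. Rpl41, a short peptide that bridges both subunits (chromosome 10 from 128548110 to 128549168), had 3216, 2358 and 3561 ppm in Torin1 polysomes, against 5079, 3271 and 5205 ppm in DMSO polysomes. The groups overlap, because Torin1 replicate 3 lies above DMSO replicate 2. Its log2 fold of -0.56 ± 0.18 did not pass (limma, adjusted p = 0.0798, 0.0109 without polysome DMSO replicate 2, 0.0359 without polysome Torin1 replicate 3 and 0.245 without polysome DMSO replicate 3).

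Among the other 22 large-subunit genes all 22 fell in the fit over all 12 libraries, from -1.57 to -0.54 on the log2 scale, and 10 of them passed with the polysome libraries alone. Rpl32 (chromosome 6 from 115805514 to 115808743) had 1564, 1354 and 1857 ppm in Torin1 polysomes, against 5255, 3697 and 5338 ppm in DMSO polysomes, the largest fall of the 45 genes with -1.57 ± 0.15 (limma, adjusted p = 6.05e-05; 0.0364 with the polysome libraries alone). Its highest Torin1 library was at 50.2% of its lowest DMSO library. Rpl13a, which in human myeloid cells also acts outside the ribosome to silence inflammatory mRNAs, had a log2 fold of -1.37 ± 0.14, and X-linked Rpl36a had -1.43 ± 0.17 (limma, adjusted p = 0.0443 and 0.0507 with the polysome libraries alone). Rpl7a (chromosome 2 from 26910685 to 26913312) had 1786, 1676 and 1723 ppm in Torin1 polysomes, against 2438, 2405 and 2721 ppm in DMSO polysomes, and Rpl27 (chromosome 11 from 101442245 to 101445596) had 2586, 2385 and 3015 ppm in Torin1 polysomes, against 4415, 3635 and 4413 ppm in DMSO polysomes. These were small but separate shifts, with log2 folds of -0.54 ± 0.08 and -0.64 ± 0.11 (limma, adjusted p = 0.00121 and 0.00279; 0.07 and 0.112 with the polysome libraries alone, where neither passed). The remaining ribosomal proteins of this group lay between these ends. Rpl27a, Rpl28, Rpl36, Rpl37, Rpl35a, Rpl29, Rpl37a and Rpl34 had log2 folds from -1.34 to -1.17. Rpl13, Rpl9, Rpl14 and Rpl21 had -1.13, -1.12, -1.10 and -1.02, and Rpl38, Rpl15, Rpl6 and Rpl18 had -0.87, -0.72, -0.70 and -0.65. Rows named as copies hold 39.6% to 44.4% of the joint sum for Rpl34 and 39.4% to 41.2% for Rpl35a, so the levels of both are uncertain. For Rpl30 this share ran from 0% to 22.8% between libraries, so its fold is uncertain as well as its level. Rpl7 had a log2 fold of -0.76 ± 0.17, and it no longer passed when any of 3 polysome libraries was dropped, namely DMSO replicate 1, DMSO replicate 3 and Torin1 replicate 2 (adjusted p up to 0.0681).

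**Figure D3:**
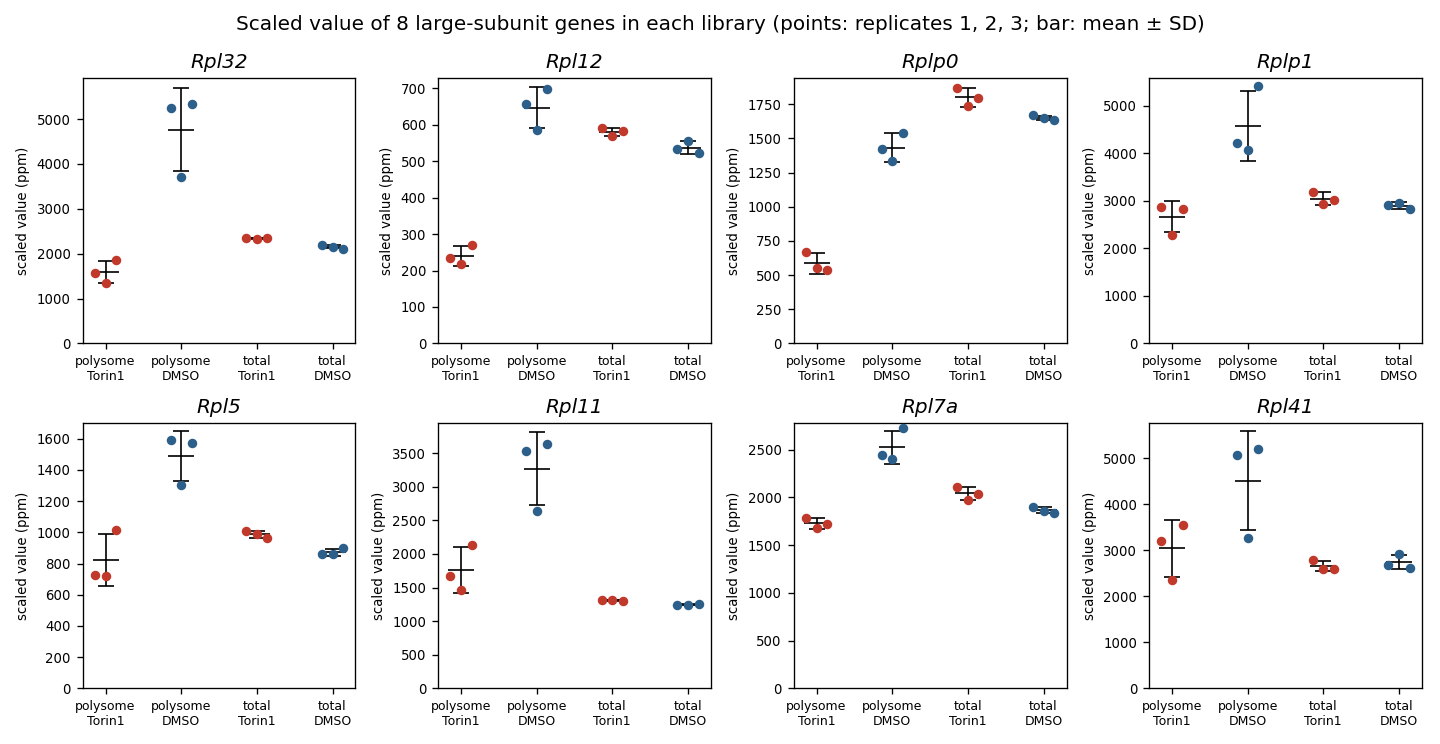
Scaled value in ppm of 8 of the 45 genes in each library, with group mean and SD (n = 3), Torin1 in red and DMSO in blue. Rpl32 and Rpl12 are lowest in Torin1 polysomes, whereas the 2 polysome groups of Rpl41 overlap.

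To compare members with each other, each library was scaled to the mean log2 value of the 45 genes, so that a fold measures departure from the family mean and shifts common to the family drop out. After that scaling the median within-group SD of the members was 0.121 in Torin1 polysomes and 0.0713 in DMSO polysomes. Relative to the family mean, 13 members were lower in Torin1 polysomes and 16 were higher, with 16 not passing (limma, adjusted p under 0.05). The same scaling called 0.44% of all genes lower and 66.6% higher, on a scale that sets the family's own shift to 0. With so many genes called, the adjustment is weak for the members, of which 31 had an unadjusted p under 0.05 in limma. The adjusted p-values relative to the family mean are thus little stricter than unadjusted ones. With the polysome libraries alone 9 members were lower and 9 higher, and without replicate 1 of all groups there were 9 of each as well. Shares of all genes are not given for these alternatives.

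The 9 lower in both fits were Rpl32, Rpl17, Rpl23a, Rpl31, Rpl12, Rpl36a, Rpl26, Rpl13a and Rpl27a, with departures from -0.52 to -0.28 on the log2 scale. The 9 higher in both were Rpl7a, Rpl41, Rpl19, Rpl4, Rpl27, Rpl18, Rpl6, Rpl3 and Rpl15, with 0.51 to 0.34. Rpl32 departed by -0.52 ± 0.07 (adjusted p = 2.64e-05 in limma over all 12 libraries) and Rpl7a by 0.51 ± 0.10 (adjusted p = 0.0006). Of the 29 calls, 10 lower and 11 higher held when any 1 of the 6 polysome libraries was dropped. Within the stalk Rplp1 was 0.28 ± 0.09 above the family mean (adjusted p = 0.0171 in limma), a call lost in the fit of polysome libraries alone, and Rplp2 was at -0.20 ± 0.09 (adjusted p = 0.0541). The tunnel proteins Rpl17 and Rpl4 differ in sign, as do the rim proteins Rpl31 and Rpl19.

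**Figure D4:**
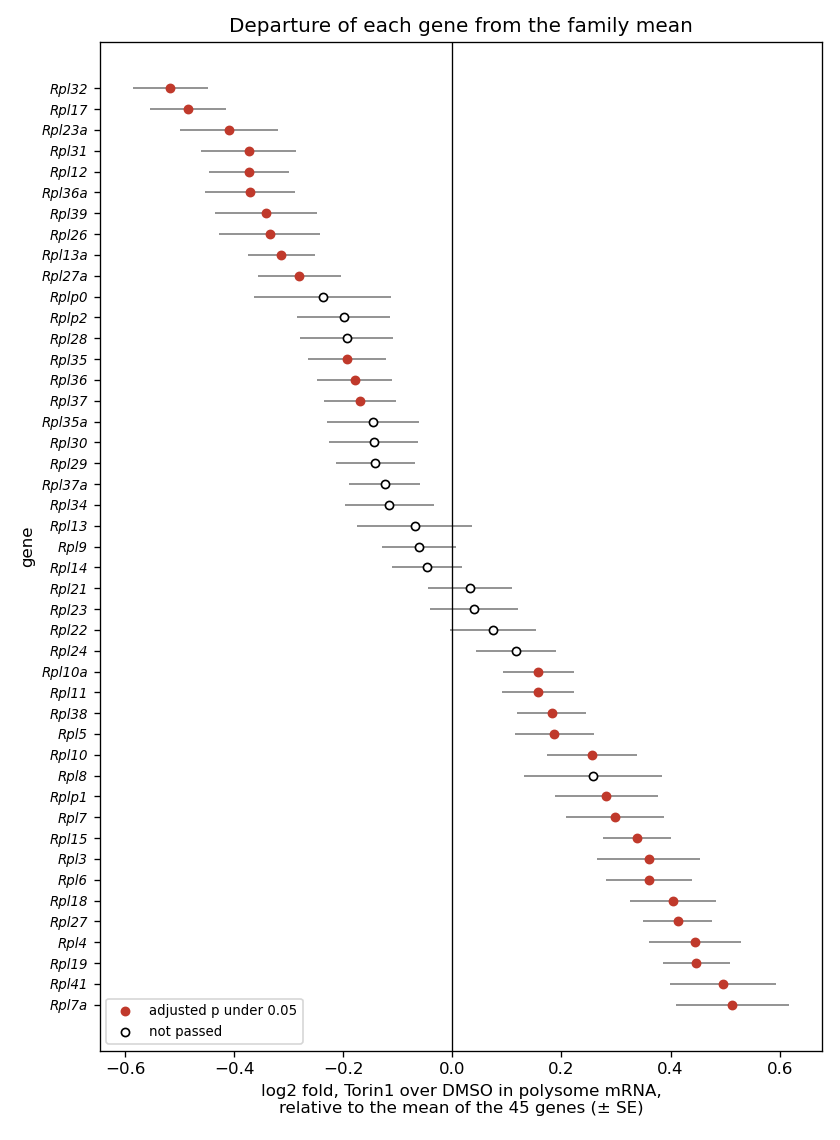
Log2 fold of Torin1 over DMSO in polysome mRNA relative to the mean of the 45 genes, with the standard error of the fit over all 12 libraries. Filled points have an adjusted p under 0.05; 13 filled points lie to the left of 0 and 16 to the right.

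Total mRNA shows whether the amount of these mRNAs changed in the same 2 h. limma called 0 of the 45 members there (2 at an unadjusted p under 0.05, Rpl3 and Rpl10), where 3.31% of all genes were called higher and 4.17% lower. The median log2 fold was 0.08 beside 0.00 over all genes tested, and the folds ran from -0.05 to 0.22. All 3 Torin1 libraries lay above all 3 DMSO libraries in 26 members, a pattern seen in 15.5% of all genes tested, and below them in 1, a pattern seen in 17.9%. When libraries were scaled by column totals only, 9 members lay above, against 12.5% of all genes tested, and 1 below, against 20.1%. Without total Torin1 replicate 2, the library rich in Rn7sk, 34 lay above, against 20% of all genes. The largest difference upward was in Rpl4, with 1188, 1146 and 1178 ppm in Torin1 total mRNA, against 1007, 1015 and 989.8 ppm in DMSO total mRNA, and its log2 fold was 0.22 ± 0.11 (adjusted p = 0.256 in limma). The 1 member below was Rpl27, with 1720.4, 1679 and 1708 ppm in Torin1 total mRNA, against 1751, 1805 and 1749 ppm in DMSO total mRNA, a log2 fold of -0.05 ± 0.11. With the 6 total libraries alone, whose spread is small, 11 members were called higher, Rpl3, Rpl4, Rpl5, Rpl6, Rpl9, Rpl10, Rpl10a, Rpl13a, Rpl17, Rpl19 and Rpl32, where 5.25% of all genes were. Relative to the family mean 0 members passed in total mRNA (1 at an unadjusted p under 0.05 in limma), where 0.509% of all genes were called higher and 0.86% lower.

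The difference between both Torin1 effects was tested as an interaction, which asks whether the polysome change exceeds the change in total mRNA. It was below 0 in 35 of the 45 members and above 0 in 0 (limma, adjusted p under 0.05), while 0.707% of all genes were called below 0 and 0.0148% above, so 35 of the 143 genes called are members. Total and polysome mRNA came from the same lysates, but the labels do not say that equal replicate numbers mark a lysate. With the number taken as a block by culture, 19 members were called below 0, and the share of all genes called in that fit is not given here. Without that block the median was -1.17 beside 0.01 over all genes tested. Of 31 small-subunit genes, 29 were called below 0 in the same fit, with a median of -1.31. In total mRNA Rpl32 had 2348, 2319 and 2346 ppm in Torin1 total mRNA, against 2187, 2155 and 2115 ppm in DMSO total mRNA. Rpl17 had 1147, 1128 and 1127 ppm in Torin1 total mRNA, against 1022, 1058 and 1034 ppm in DMSO total mRNA. Rpl12 had 589.8, 568 and 583 ppm in Torin1 total mRNA, against 535, 556 and 521 ppm in DMSO total mRNA. In these 3 genes every Torin1 total library lay above every DMSO total library, by small margins. For the interaction Rpl32 had -1.69 ± 0.21, Rpl17 -1.67 ± 0.19 and Rpl12 -1.54 ± 0.12 (limma, adjusted p = 0.00167, 0.00111 and 0.000213). Of the stalk, Rplp0 had -1.42 ± 0.13 and Rplp2 -1.26 ± 0.12, and Rplp1 with -0.85 ± 0.18 did not pass (limma, adjusted p = 0.0683). Rpl5 passed with -1.05 ± 0.18, and Rpl11 with -0.97 ± 0.20 did not (limma, adjusted p = 0.0142 and 0.0583). Rpl5 lost its call without total DMSO replicate 1 or 2, total Torin1 replicate 1, or polysome DMSO replicate 1 or 3 (adjusted p up to 0.0558), and Rpl11 gained one without polysome DMSO replicate 2 (0.00938) or polysome Torin1 replicate 3 (0.00435). In total mRNA Rpl41 had 2788, 2599.9 and 2600.0 ppm in Torin1 total mRNA, against 2691, 2919 and 2624 ppm in DMSO total mRNA, and Rpl7a had 2113, 1969 and 2039 ppm in Torin1 total mRNA, against 1895, 1859 and 1833 ppm in DMSO total mRNA. The interaction values nearest 0 were those of Rpl41 with -0.52 ± 0.26, Rpl27 with -0.59 ± 0.15 and Rpl7a with -0.67 ± 0.11, of which Rpl7a passed (limma, adjusted p = 0.0138), a call lost without total DMSO replicate 1, 2 or 3 or total Torin1 replicate 1 or 3 (up to 0.0663). Rpl27 passed without polysome Torin1 replicate 3 (0.0187).

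Relative to the family mean 9 members had an interaction below it and 9 above it (limma, adjusted p under 0.05), where 0.469% and 60.5% of all genes tested did, and 6 of each held whichever of the 12 libraries was left out. Here too the adjustment is weak for the members, of which 20 had an unadjusted p under 0.05 in limma. The extremes were Rpl32 with -0.55 ± 0.10 and Rpl41 with 0.63 ± 0.14. The 10 members not called in the interaction itself were Rplp1, Rpl7, Rpl11, Rpl19, Rpl22, Rpl24, Rpl27, Rpl35a, Rpl38 and Rpl41. The count of calls ranged from 22 to 44 with single libraries left out (22 without total DMSO replicate 3 or polysome DMSO replicate 1, 23 without total DMSO replicate 1 or total Torin1 replicate 1, and 44 without polysome Torin1 replicate 3). It was 0 without replicate 1 of all groups, where 42 members had an unadjusted p under 0.05.

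Polysome mRNA was also set against total mRNA within each treatment, which describes how much of each mRNA sits on more than 3 ribosomes relative to other mRNAs. In DMSO cells 44 of the 45 members were higher in polysome than in total mRNA and 0 lower (limma, adjusted p under 0.05), where 20.7% of all genes were called higher and 20.4% lower. The median log2 ratio was 1.02 beside -0.03 over all genes tested. It was 0.64 when libraries were scaled by column totals only, where 33 members were called higher and 1, Rplp0, lower. For that scaling the share of all genes called is not given. In 44 members all DMSO polysome libraries lay above all DMSO total libraries, which holds for 26% of all genes tested. Rpl38, whose loss in mice disturbs translation of Hox mRNAs and patterning of the skeleton, had the highest ratio, with 7268, 5416 and 7268 ppm in DMSO polysomes against 2246, 2284 and 2186 ppm in DMSO total mRNA, a log2 ratio of 1.56 ± 0.15. Rpl26 had 3069, 2224 and 3082 ppm in DMSO polysomes against 1006, 1012 and 991 ppm in DMSO total mRNA, and Rpl36a had 2964, 2078 and 2955 against 971, 1014 and 980.2 ppm. They followed with 1.46 ± 0.18 and 1.41 ± 0.17, and these 3 neighbours in the order do not differ beyond their errors. At the other end Rplp0 had 1419, 1333 and 1541 ppm in DMSO polysomes against 1667, 1645 and 1635 ppm in DMSO total mRNA. It was the 1 member with all polysome libraries below all total libraries, which holds for 27.4% of all genes, and its log2 ratio of -0.21 ± 0.09 did not pass (limma, adjusted p = 0.105). When libraries were scaled by column totals only it was -0.59 and passed (adjusted p = 0.000522 in limma), while Rplp1 no longer passed as higher (0.0538). Total mRNA of DMSO cells held 535, 556 and 521 ppm of Rpl12 and 1007, 1015 and 989.8 ppm of Rpl4. Rpl12 with 0.26 ± 0.09 and Rpl4 with 0.28 ± 0.11 came next, and both became negative with scaling to the column total alone (-0.11 and -0.09). Rpl12 did not pass without replicate 1 or 3 of either DMSO fraction (limma, adjusted p up to 0.112), and Rpl4 did not pass when any of the 6 DMSO libraries was dropped (up to 0.121).

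In Torin1 cells the same ratio was centred nearer to that of all genes. Of the 45 members 4 were higher in polysome than in total mRNA and 17 lower (limma, adjusted p under 0.05), where 19.8% of all genes were called higher and 19.8% lower, and the median log2 ratio was -0.20 beside -0.03 over all genes tested. Without replicate 1 of all groups 10 were lower and 2 higher, and without polysome DMSO replicate 2 and polysome Torin1 replicate 3 together 29 were lower, in both cases with no share of all genes given. The 4 still higher were Rpl38 with 0.67 ± 0.15, Rpl27 with 0.64 ± 0.11, Rpl19 with 0.54 ± 0.13 and Rpl11 with 0.40 ± 0.14, of which Rpl11 did not pass without total Torin1 replicate 1, 2 or 3 or polysome Torin1 replicate 1 or 3 (limma, adjusted p up to 0.13). In these 4 genes all Torin1 polysome libraries lay above all Torin1 total libraries, a pattern found in 23% of all genes, and in 19 members they lay below, a pattern found in 24.2%. Rpl38 had 3509, 3001 and 4406 ppm in Torin1 polysomes against 2327, 2172 and 2276 ppm in Torin1 total mRNA. The lowest ratios were in the stalk, with -1.63 ± 0.09 for Rplp0 and -1.28 ± 0.09 for its neighbour Rpl12 (limma, adjusted p = 6.69e-07 and 1.38e-06). Rplp0 had 672, 549 and 535 ppm in Torin1 polysomes against 1870.3, 1734 and 1795 ppm in Torin1 total mRNA, so its groups are far apart. Rplp2 had a log2 ratio of -0.55 ± 0.09 and Rplp1 one of -0.20 ± 0.13, which did not pass.

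**Figure D5:**
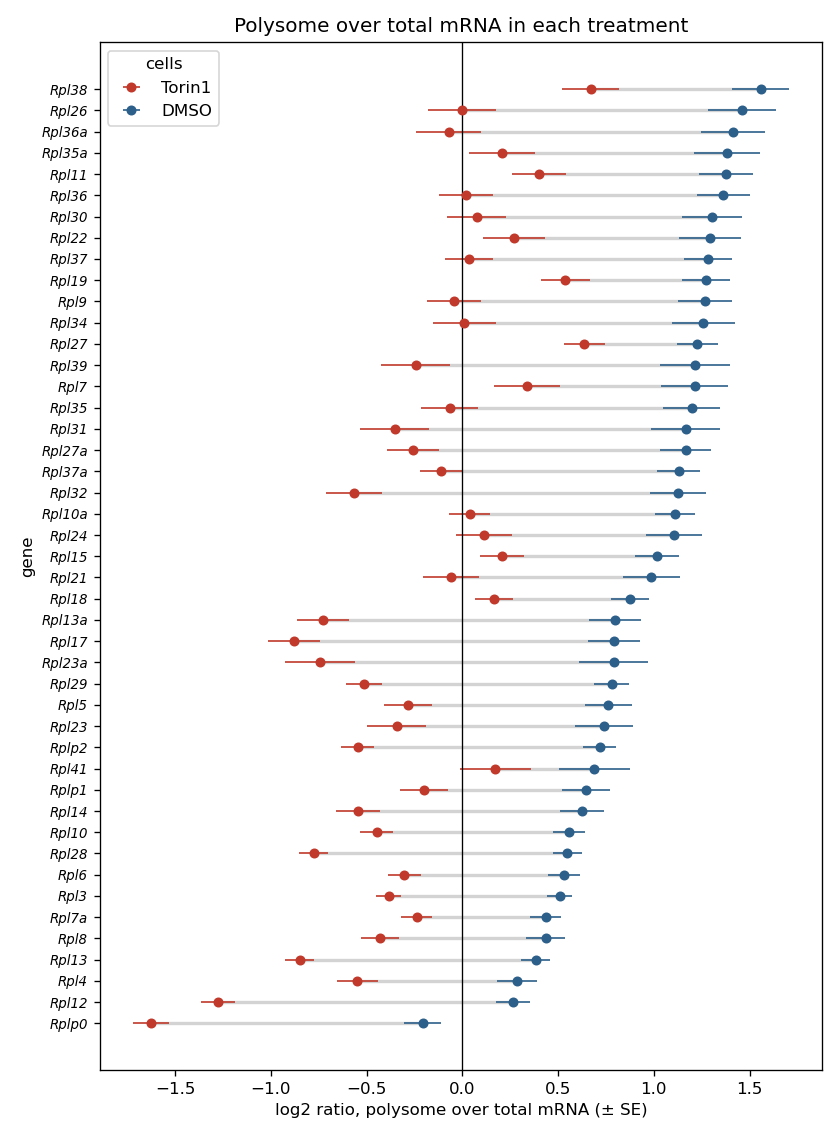
Log2 ratio of polysome over total mRNA for each of the 45 genes in Torin1 cells (red) and DMSO cells (blue), ordered by the DMSO ratio, with standard errors. Every red point lies left of its blue point; 44 DMSO ratios are above 0, and Rplp0 is lowest in both treatments.

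The most similar set, 31 genes of the small ribosomal subunit, gave 31 lower and 0 higher in polysome mRNA, with a median log2 fold of -1.22 and a range from -1.82 to -0.77. In total mRNA 0 of the 31 passed (1 at an unadjusted p under 0.05 in limma), with a median of 0.09. In the interaction 29 of the 31 were called below 0 and 0 above. The largest fall in polysome mRNA among them was that of Rps19 with -1.82 ± 0.14, beyond that of Rpl32. Factors that assemble and export the large subunit were measured too. Of 52 such genes 6 fell and 1 rose in polysome mRNA, with a median log2 fold of -0.06. Of all genes tested 5.77% were called lower and 4.55% higher there. Nsa2 and Nop16, both nucleolar assembly factors, had -0.61 ± 0.16 and -0.46 ± 0.10, and Pes1, a subunit of the PeBoW complex, had 0.38 ± 0.06. In total mRNA 5 of the 52 fell and 1 rose, where 4.17% of all genes were called lower and 3.31% higher. In the interaction 0 of the 52 passed (6 at an unadjusted p under 0.05 in limma), where 0.707% of all genes were called below 0 and 0.0148% above. Of 22 other mRNAs listed as TOP mRNAs, among them translation elongation factors, 12 fell and 1 rose in polysome mRNA with a median of -0.54. Tpt1 had a log2 fold of -1.40 ± 0.11 and the initiation factor gene Eif3a 0.70 ± 0.08. In the interaction 11 of the 22 were called below 0 and 0 above, with a median of -0.73. The shares of all genes given in this paragraph apply to each of the 3 lists. No test compared these lists with the members.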

How the data were processed

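RNA was sequenced from total and polysome fractions in 12 libraries, grouped by their titles. STAR 2.7.9a, HTSeq 0.6.0 and mm10 are named, with no role or order, per the submitters' processing notes. The deposited table holds 53351 genes, 12 sample columns and 0 other sample columns. Its values are a signal that is never negative, and the authors' scaling of it was not stated. All values below 100 in every column were whole multiples of 1 step within 0.011, and the columns hold nearly equal numbers of steps, so that a step stands for a share of the column and no count test was used.

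Each column was scaled by its total and then by a trimmed mean of log ratios without weights (0.3 of ratios and 0.05 of abundances trimmed at each end). Genes reaching a deposited value of 1 in 3 or more libraries, 20240 in all, entered limma 3.58.1 (R 4.3.3) as log2(value + 1) with 4 group means, which understates folds of low genes. Benjamini-Hochberg adjustment covered all genes of a comparison, for 5 comparisons at a threshold of 0.05. A second fit set each library to the members' mean log2 value. Gene spans and start sequences come from RefSeq's tables for GRCm38.

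Values in every library are given for the 5 largest and 5 smallest polysome folds, members that did not pass there, the extremes in total mRNA, the 3 highest and 3 lowest values of the interaction and of the polysome ratio in DMSO cells, the stalk and the 5S genes. Rpl3 was added after its values were seen. Of other lists, up to 2 rises and 2 falls may be named. Members, lists and tests were chosen with earlier results of these data known. Alternatives were other scalings, stricter and looser filters, a pseudocount of 0.1, fits of only the groups compared, replicate blocks, and libraries left out. The share of all genes called can differ between these settings. A count printed without it cannot be set against the shares of the fit over all 12 libraries.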

Additional observations from a re-analysis of the deposited data

Results flagged for a closer look

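The following values stood out because the Torin1 effect in polysome mRNA differed from that in total mRNA, tested as an interaction in limma over all 12 libraries. It did so for 35 of the 45 large-subunit genes, all with the lower value in polysome mRNA, where 0.707% of all genes were called below 0. With the replicate number as a block by culture it did so for 19, and the share of all genes in that fit is not given. Small-subunit genes were alike, with 29 of 31 called below 0 in the fit over all 12 libraries. Among the genes described in full, the difference of the log2 folds was -1.69 for Rpl32, -1.67 for Rpl17, -1.54 for Rpl12, -1.42 for Rplp0, -1.26 for Rplp2, -1.05 for Rpl5 and -0.67 for Rpl7a. The calls on Rpl5 and Rpl7a were lost when any of 5 of the 12 libraries was dropped, and the other 5 held whichever single library was left out. Without replicate 1 of all groups 0 of the 45 genes were called (limma, lowest adjusted p = 0.0976). Groups of 3 are too small for a check of single outlying libraries.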

How the results depend on the processing

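The direction of the members' median in polysome mRNA and in the interaction held under every alternative run. With scaling to the column total alone the medians were -0.8643 in polysome mRNA, -0.8839 in the interaction and 0.6399 for polysome over total mRNA in DMSO cells, where 33 members were called higher and 1 lower and Rpl12 (-0.1141) and Rpl4 (-0.09324) changed sign. With only the compared groups fitted, 17 members were lower in polysome mRNA (1.3% of all genes) and 11 higher in total mRNA (5.25% of all genes). Against the family mean such fits gave 9 higher in polysome mRNA, and 2 lower and 4 higher in total mRNA. Without polysome DMSO replicate 2 and polysome Torin1 replicate 3 together, chosen after seeing the data, the medians were -1.354 in polysome mRNA and -1.41 in the interaction. There 5 members were higher in total mRNA and 29 lower in polysome than in total mRNA of Torin1 cells, and against the family mean 2 were lower and 1 higher in total mRNA and 16 lower and 14 higher in the interaction.

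With libraries or replicate numbers left out, calls ranged from 30 to 45 in polysome mRNA, 0 to 2 higher in total mRNA and 0 to 44 in the interaction. Polysome over total mRNA gave 0 to 1 lower in DMSO cells, and 10 to 21 lower and 2 to 6 higher in Torin1 cells. Against the family mean 9 to 15 were higher in polysome mRNA, and 3 to 11 lower and 3 to 12 higher in the interaction. The shares of all genes called with libraries left out are not given. In Torin1 cells, polysome over total mRNA, the log2 ratios that are near 0 for Rpl26 became positive without 1 or more libraries (0.02127, 0.006911, 0.02491, 0.1869 and 0.2139), as did those of Rpl36a (0.06162, 0.01243 and 0.05505), and their lowest values were -0.2219 and -0.2761 without polysome Torin1 replicate 3. The cause of these changes was not tested.

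Whether equal replicate numbers mark paired samples could not be decided from correlations of deviations. Same-numbered libraries of a fraction had values from -0.232 to 0.328 in 6 pairs. Total and polysome libraries of the same treatment and number had values from -0.0872 to 0.0824 in 6 pairs. Both ranges lie within that of libraries with different numbers, from -0.282 to 0.343, and each rests on few pairs. With the replicate block 44 members were called lower in polysome mRNA and 37 in the interaction, and with the replicate block by culture 19 in the interaction. The shares of all genes called in these block fits are not given here. A comparison with protein length was not run because no protein table was used here. The depth in reads is unknown.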

Other observations

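Of the large-subunit genes, 9 are mutated in human Diamond-Blackfan anaemia, a failure of red cell formation. All 9 fell in polysome mRNA of Torin1 cells against DMSO cells in the fit over all 12 libraries (limma, adjusted p under 0.05, where 5.77% of all genes were called lower), with a median log2 fold of -0.90, beside -1.12 over the 45 genes and 0 over all genes tested. They spread over most of the range of the family, with Rpl31 at -1.43, Rpl26 at -1.39 and Rpl35 at -1.25, and Rpl15, Rpl18 and Rpl27 at -0.72, -0.65 and -0.64. With the polysome libraries alone 1 of the 9 passed, Rpl35 with an adjusted p of 0.0486 in limma. In the interaction all 9 values were below 0 and 6 passed, where 0.707% of all genes were called below 0. In polysome over total mRNA of Torin1 cells 2 of the 9 were called higher, Rpl11 and Rpl27, where 19.8% of all genes were, and Rpl11 did not pass when any of 5 of the 6 Torin1 libraries was dropped. No test compared these 9 genes with the other members.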
